A study of Caenorhabditis elegans with 6 samples.

Results

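The vitellogenin genes of Caenorhabditis elegans, vit-1 to vit-6, encode the yolk proteins. They were followed here as every probe set to which the array's platform table gives one of these 6 symbols. The rule found 5 probe sets among the 29317 deposited, 1 each for vit-1 (18613465), vit-2 (18605886), vit-4 (18627978), vit-5 (18602983) and vit-6 (18540293). Each of the 5 names 1 gene only. Vit-3 is named by no probe set of that table and is not analysed here.

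Vitellogenins are large lipoproteins related to apolipoprotein B. Adult hermaphrodites make them in the intestine, starting around the transition from the last larval stage to adulthood, and secrete them into the body cavity. Oocytes then take them up through the receptor RME-2, and the embryo and young larva consume them. Males do not normally make yolk, because the factor MAB-3 represses the genes. Vit-1 and vit-2 form one closely related pair and vit-3, vit-4 and vit-5 another closely related set, all coding for heavy yolk polypeptides. Vit-6 is more distant, and its product is cut into smaller yolk polypeptides. Probe sets of the close relatives may read RNA of more than 1 gene, so the value of each probe set is uncertain as the level of its named gene.

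The exposed group was wild-type N2 hermaphrodites grown for 48 h on plates with Escherichia coli OP50 to the L4 larval stage, then held for 24 h at 20 °C in 50% M9 buffer with 500 µg/mL BSA-SPIONs, superparamagnetic iron oxide nanoparticles under a single layer of bovine serum albumin (3 arrays). The control group had the same growth and the same 24 h in 50% M9 buffer without particles (3 arrays). Total RNA of whole worms was hybridised to one-colour Affymetrix arrays. No array had albumin alone or uncoated particles, so what the iron oxide, the albumin coat or the mass of particles each did cannot be told apart. The stage at harvest is not stated beyond the L4 label, and the buffer protocol names no food. The labels do not say whether replicates were separate cultures, so p-values cover the spread among these 6 samples only, and that spread may be technical. In whole-worm RNA, fewer cells of a type and less RNA per cell cannot be told apart.

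All values are log2 RMA expression values, on which 1 unit is a 2-fold difference. Over the 26192 probe sets with a gene, array medians were 3.70 to 3.89 in exposed arrays and 3.97 to 3.98 in controls, and the brightest probe set of any array lay between 13.65 and 13.78. Pearson's r across these probe sets, which are no independent replicates, was 0.963 or more within groups and 0.959 or less between them. The weights that limma estimated for the arrays were lowest for control 3 (0.368) and exposed 3 (0.483), against 1.20 to 2.03 for the other 4.

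Of the 5 yolk genes 1, vit-1, was higher in every exposed array than in any control and passed the test. Vit-4 and vit-6 had positive changes of almost 1 log2 unit that did not pass, vit-2 had a change of -0.06, and vit-5 had a negative change that did not pass. The count of 1 higher and 0 lower among 5 stands beside 3.66% of all tested probe sets called in either direction, or 1.06% called higher. The call rule was an adjusted p under 0.05 in limma over all 26192 probe sets. Of all calls, 29% were higher on the deposited scale, 60.1% with equal array medians and 41.5% after a second quantile normalization, so the balance of directions over the array turned with the scaling. The median log2 change of the 5 was 0.94, beside 0.05 over all tested probe sets. That median is the change of vit-6, which did not pass, and 2 of the 5 changes were negative.

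Vit-1 had 6.96, 6.94 and 6.72 in exposed arrays 1, 2 and 3, against 4.91, 4.65 and 4.57 in controls 1, 2 and 3 (log2). The groups were far apart: the lowest exposed array lay 1.81 log2 units above the highest control, while the range within a group was 0.24 for exposed and 0.35 for control. Every exposed array lay above every control for 14.6% of all tested probe sets. The means were 6.87 ± 0.13 in exposed and 4.71 ± 0.18 in control worms (SD, n = 3 each), a 4.49-fold rise with a 95% interval of 3.32 to 6.06 and an adjusted p of 0.0064 in limma. Only 0.993% of tested probe sets had a larger change in either direction, and the p-value ranked 18th of 26192.

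Vit-2 codes for a heavy yolk polypeptide and its probe set lay near the top of the scale. It had 12.43, 12.18 and 12.16 in exposed arrays 1, 2 and 3, against 12.04, 12.37 and 12.54 in controls 1, 2 and 3 (log2). The exposed values lay wholly inside the range of the controls. The means were 12.26 ± 0.15 in exposed and 12.32 ± 0.25 in control worms (SD, n = 3 each), with a log2 change of -0.06. The 95% interval of the fold ran from 0.691 to 1.33 (adjusted p = 0.888 in limma). A probe set this bright can respond less than in proportion to its RNA, and whether it did so here was not tested.

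Vit-5, of the set with vit-3 and vit-4, was also bright. It had 11.51, 10.87 and 10.94 in exposed arrays 1, 2 and 3, against 11.18, 11.34 and 12.10 in controls 1, 2 and 3. Exposed 2 and 3 lay below every control, and exposed 1 lay between controls 2 and 3. The log2 change was -0.44 ± 0.30 (SE), with a fold of 0.740 and an interval of 0.454 to 1.21 (adjusted p = 0.438 in limma). Its sign was negative under all 17 alternative settings, and none of them made it pass.

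Vit-6, whose product is cut into smaller yolk polypeptides, had 11.86, 11.26 and 11.31 in exposed arrays 1, 2 and 3. The controls had 9.94, 10.22 and 11.46. Exposed worms were above controls 1 and 2 in all 3 arrays, but control 3 lay above exposed 2 and 3, and the groups overlapped. The means were 11.48 ± 0.33 in exposed and 10.54 ± 0.81 in control worms (SD, n = 3 each), a fold of 1.92 with an interval of 0.998 to 3.68 (adjusted p = 0.224 in limma). This value rested on control 3: without it the log2 change was 1.40 and passed (adjusted p = 0.027). It passed as well with array weights (1.36, adjusted p = 0.027) and without both arrays numbered 3 (1.48, adjusted p = 0.033), and missed the threshold under the other 14 settings, with the same sign throughout.

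Vit-4 lay low on the scale, where RMA compresses differences. It had 4.36, 3.26 and 4.49 in exposed arrays 1, 2 and 3, against 3.19, 2.56 and 3.38 in controls 1, 2 and 3. Exposed 1 and 3 lay above every control, while exposed 2 lay between controls 1 and 3. In each group array 2 was the lowest. The fold was 1.99 with an interval of 1.09 to 3.66, an unadjusted p of 0.031 and an adjusted p of 0.176 in limma, so the change did not pass. At an unadjusted p under 0.05, 10.1% of all tested probe sets were higher.

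**Figure D1:**
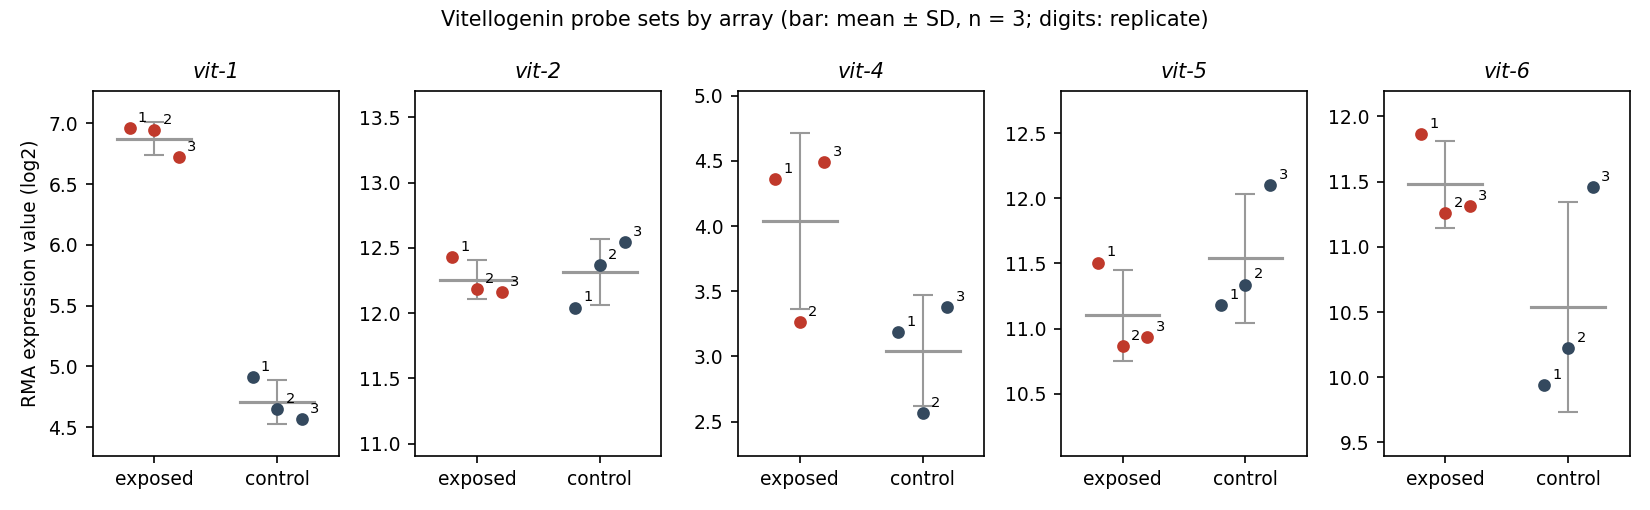
RMA expression value (log2, vertical axis, each panel with its own range) of the 5 vitellogenin probe sets in the 3 exposed arrays (red, left) and 3 control arrays (dark, right), with digits for the replicate and bars for mean ± SD. The groups are apart for vit-1 alone (6.72 to 6.96 in exposed, 4.57 to 4.91 in control arrays), and for vit-6 control 3 (11.46) lies among the exposed arrays.

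The change of vit-1 passed under all 17 alternative settings, with log2 changes of 2.09 to 2.37 and adjusted p-values of 0.0015 to 0.048 in limma. The highest of these p-values came without control 2 and the next highest without exposed 1 (0.045). Vit-4 kept its sign in the 16 settings that tested it and passed in 0 of them, with adjusted p-values of 0.055 to 0.396. Vit-2 was negative in 12 of 17 settings and positive in 5, among them equal array medians, where its log2 change was 0.14. Setting equal medians moved the median change of all tested probe sets to 0.26, so vit-2 lay below that median under either scaling.

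**Figure D2:**
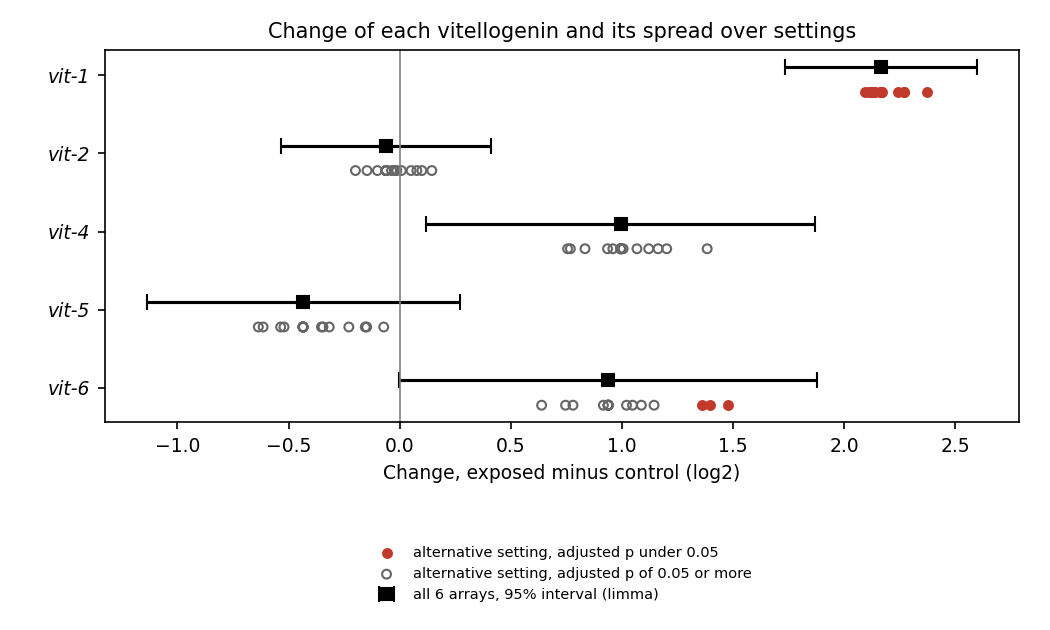
Log2 change, exposed minus control (horizontal axis), of each vitellogenin. Black squares with bars give the fit to all 6 arrays with its 95% interval, and circles below give the alternative settings, filled red where the adjusted p was under 0.05. All 17 circles of vit-1 are filled, 3 of those of vit-6, and none of the others.

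Differences between probe sets within an array were compared next. Their absolute size has no meaning, since probe sets differ in how strongly they bind. A change in them is one of probe signal, and with vit-2 near the top of the scale and vit-4 near the bottom it need not equal the change in RNA. Vit-6 minus vit-5 was 0.36, 0.39 and 0.38 in exposed arrays 1, 2 and 3, against -1.24, -1.11 and -0.64 in controls 1, 2 and 3 (log2). The exposed arrays agreed within an SD of 0.018, the controls within an SD of 0.31, and the groups did not overlap. The difference between groups was 1.37, or 2.59-fold in signal of vit-6 relative to vit-5.

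Vit-6 minus vit-2 was -0.56, -0.92 and -0.85 in exposed arrays 1, 2 and 3, against -2.10, -2.14 and -1.09 in controls 1, 2 and 3. These groups were also apart, although control 3 lay close to exposed 2, and the signal of vit-6 relative to vit-2 differed by 2.0-fold. Vit-5 minus vit-2 was -0.92, -1.31 and -1.22 in exposed arrays, against -0.86, -1.03 and -0.44 in controls, and these overlapped. The signal of vit-1 was higher in exposed worms relative to each of the other 4, by 2.23 log2 units against vit-2, 2.60 against vit-5, 1.23 against vit-6 and 1.17 against vit-4, with no overlap of the groups in any of these 4 differences. All 10 pairs were compared. The groups were apart in 7 of them, each with a two-sided exact permutation p of 0.1, the smallest that 3 arrays against 3 can give, or 0.143 adjusted over the 10 pairs. No pair could therefore pass 0.05. The 10 pairs share 5 probe sets and are not independent. Of the 7 with groups apart, 4 hold vit-1, whose own groups were far apart. How often pairs of other probe sets had groups apart was not counted. The largest p, 0.8, belonged to vit-4 and vit-6, whose changes differed by 0.06.

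**Figure D3:**
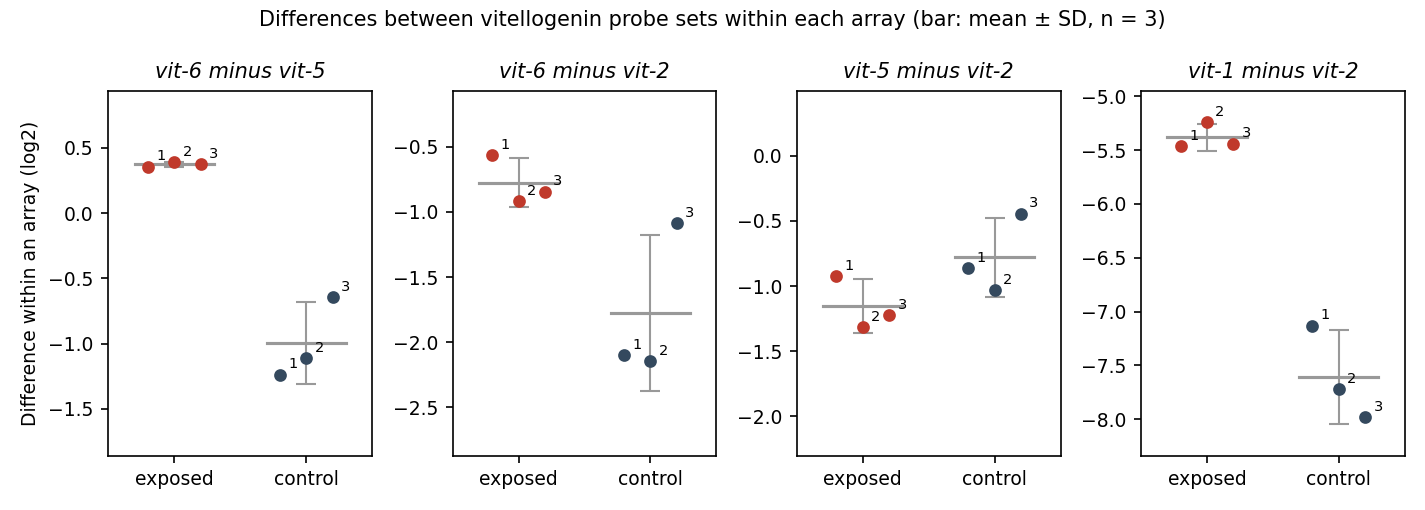
Difference in log2 value between named vitellogenin probe sets within each array (vertical axis, each panel with its own range), with exposed arrays in red on the left, controls in dark on the right, and bars for mean ± SD. For vit-6 minus vit-5 the exposed arrays lie between 0.36 and 0.39, above all controls.

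Within a group, vit-2, vit-5 and vit-6 moved largely together from array to array. In deviations from the group means, control 3 was high for all 3 (0.23, 0.56 and 0.92) and control 1 was low (-0.28, -0.36 and -0.60). Exposed 1 was high for the same 3 (0.17, 0.40 and 0.38). In control 2 they parted, with vit-2 slightly above its group mean (0.05) and vit-5 and vit-6 below theirs (-0.20 and -0.32). Over the 6 arrays these deviations correlated with r of 0.974 for vit-5 and vit-6, 0.894 for vit-2 and vit-5 and 0.884 for vit-2 and vit-6, as a description of arrays that share their RNA sample and scaling. Vit-1 departed from this, with r of -0.50 to -0.23 against the other 4. Control 3, high for vit-2, vit-5 and vit-6, was the lowest control for vit-1. For vit-2, vit-5 and vit-6 the range within the control group, 0.50, 0.92 and 1.52, was larger than the difference between the group means.

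The genes around yolk production and uptake were read as 4 lists with 47 genes, of which 44 were measured. The lists were chosen with earlier results of these data known. In all, 0 of the 44 were called higher and 1 was called lower, or 2.27%, beside the 3.66% of all tested probe sets called in either direction and the 2.60% called lower. Separate groups, mentioned below, mean that all 3 exposed arrays lay on one side of all 3 controls, which held for 28.2% of the 26192 probe sets. Counts at an unadjusted p under 0.05 are given beside counts of 0, and 22.5% of the 26192 were under it in either direction.

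Among 13 measured regulators of yolk genes, 0 rose and 1 fell (1 higher and 2 lower unadjusted), with a median log2 change of -0.17. The gene that fell was lin-14, a heterochronic gene that specifies early larval fates and acts in the developmental timing of vit expression. It had 6.96, 7.76 and 6.93 in exposed arrays 1, 2 and 3, against 9.31, 9.36 and 8.57 in controls 1, 2 and 3. Every exposed array lay below every control. The log2 change was -1.86 (adjusted p = 0.029 in limma). This call was lost without exposed 1, exposed 3, control 1 or control 2, with adjusted p-values up to 0.115, while the log2 change stayed at -1.72 to -1.74.

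The other regulators did not pass. Pqm-1, a zinc finger factor downstream of insulin and TORC2 signalling, averaged 8.15 in exposed and 8.70 in control worms, with separate groups (adjusted p = 0.159). Lin-41, a target of the microRNA let-7, averaged 7.15 in exposed and 6.29 in control worms (adjusted p = 0.166). Elt-2, the GATA factor of the intestine that drives vit promoters, averaged 6.79 in exposed and 6.21 in control worms, with control 3 (6.63) above exposed 3 (6.57).

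The homeodomain factors unc-62 and ceh-60, which promote vit expression, had log2 changes of -0.27 and 0.22 and overlapping groups. Mab-3 averaged 2.90 in exposed and 3.16 in control worms, near the bottom of the scale, with overlapping groups. Lin-29, the factor at the end of the heterochronic pathway, is named by no probe set and is not analysed here.

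Of 8 measured genes of lipoprotein assembly and secretion, 0 passed (1 higher and 1 lower unadjusted), with a median log2 change of 0.10. Dsc-4, the large subunit of the microsomal triglyceride transfer protein that loads lipid onto vitellogenin, had 5.61, 5.75 and 5.13 in exposed arrays 1, 2 and 3, against 5.97, 6.08 and 6.03 in controls 1, 2 and 3. The exposed arrays were all lower, by 0.53 on average, with an adjusted p of 0.197 in limma. Sft-4, a cargo receptor for yolk export from the endoplasmic reticulum, averaged 8.90 in exposed and 9.11 in control worms (adjusted p = 0.577). The coat protein genes npp-20, which encodes the Sec13 homologue, and sec-23 had separate groups and log2 changes of 0.61 and 0.51 that did not pass (adjusted p = 0.127 and 0.232).

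Of 13 measured genes of yolk uptake and endocytic recycling, 0 passed (2 higher and 0 lower unadjusted), with a median of 0.01. The yolk receptor gene rme-2 had 7.93, 7.96 and 7.58 in exposed arrays 1, 2 and 3, against 6.98, 6.98 and 6.01 in controls 1, 2 and 3. The groups were apart, with control 3 the lowest array. The log2 change was 1.17 (adjusted p = 0.078 in limma), and it passed under 2 of 17 settings, array weights and without both arrays numbered 3. Rme-6, an exchange factor for the endosomal GTPase RAB-5, averaged 5.51 in exposed and 4.84 in control worms with separate groups (adjusted p = 0.081). Dyn-1, the dynamin that cuts endocytic vesicles from the membrane, averaged 6.20 in exposed and 6.83 in control worms, also with separate groups (adjusted p = 0.234).

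Of 10 proteases, 0 passed (3 higher and 1 lower unadjusted), with a median of 0.04. Cpl-1, the cathepsin L needed for yolk processing in embryos, had 10.59, 10.39 and 10.74 in exposed arrays 1, 2 and 3, against 9.92, 9.90 and 9.88 in controls 1, 2 and 3. The groups were apart by 0.68 on average (log2, adjusted p = 0.081 in limma). The cathepsin B-like genes cpr-4 and cpr-5 also had separate groups, with log2 changes of 1.84 and 1.24 and adjusted p-values of 0.083 and 0.097. For cpr-4 the 3 exposed arrays lay between 8.72 and 8.77, against 7.38, 7.65 and 5.66 in controls 1, 2 and 3. Both genes passed without control 3, with array weights, without both arrays numbered 3 and with controls 2 and 3 averaged.

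**Figure D4:**
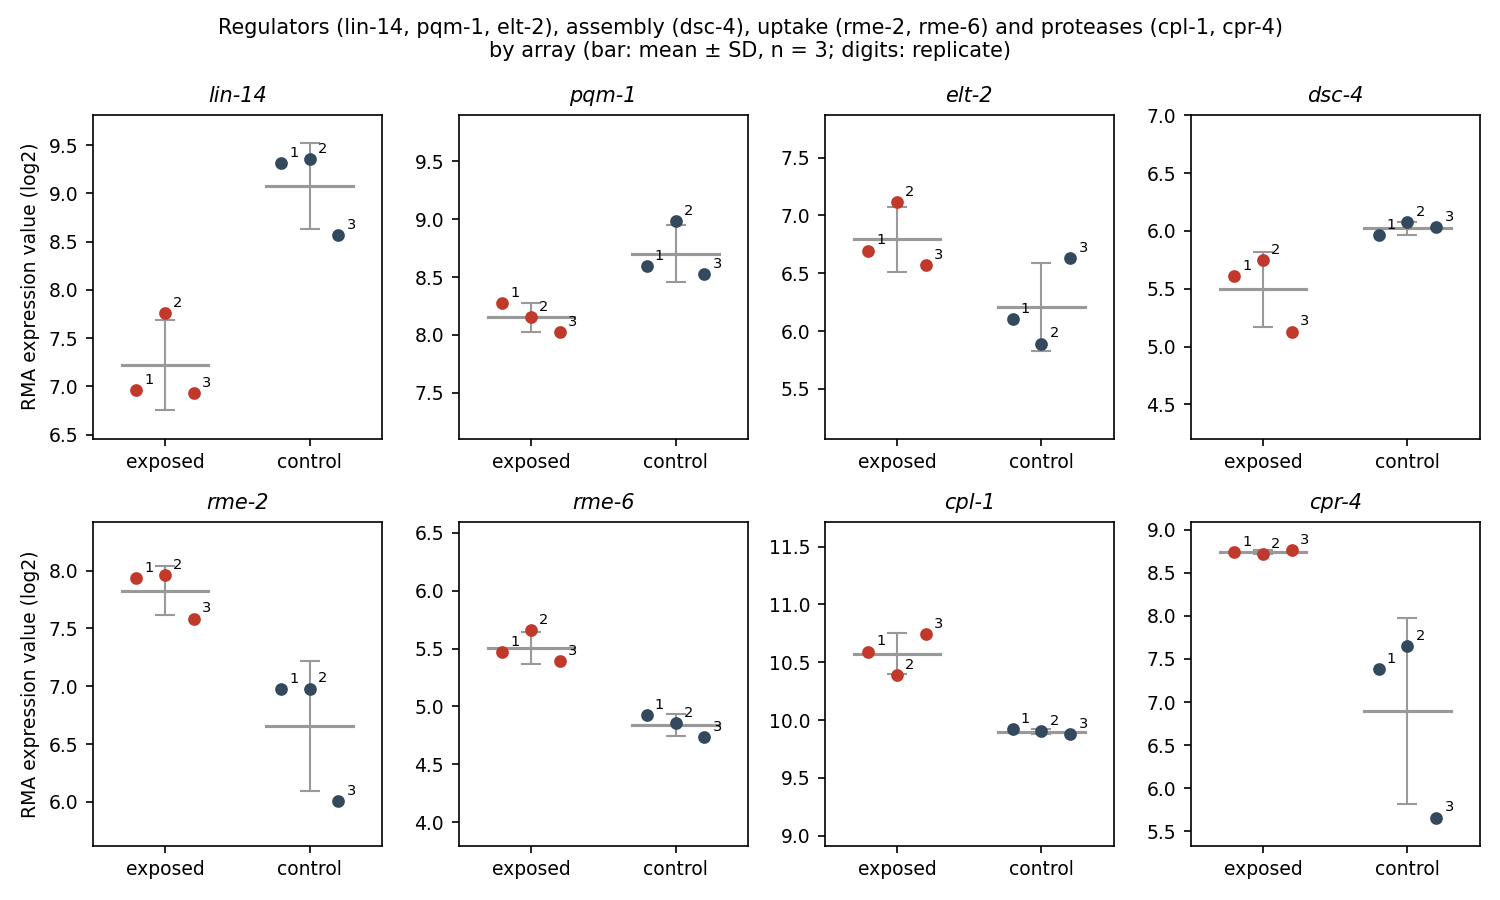
RMA expression value (log2, vertical axis, each panel with its own range) of 8 genes around the vitellogenins in exposed arrays (red, left) and controls (dark, right), with digits for the replicate and bars for mean ± SD. Lin-14 alone among the 8 passed the test (6.93 to 7.76 in exposed, 8.57 to 9.36 in control arrays).

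Marker lists were read beside the yolk genes, since vit RNA comes from the intestine of animals near adulthood. Genes such as elt-2 and rme-2 stand on a yolk list and on a marker list. Of 16 intestine markers, 0 rose and 2 fell (1 higher and 7 lower unadjusted), with a median log2 change of -0.44. The change was positive in 5 and negative in 11. The median was -0.23 with equal array medians. Leaving out 1 array gave 0 to 7 called lower, the 7 coming without control 3 and the 0 without exposed 1, exposed 3, control 1 or control 2. Lower calls over all tested probe sets moved likewise. They were 681 as reported, 1335 without control 3 and 43 to 233 in the 4 settings that gave 0. The list mean lay at 7.11 to 7.44 in exposed and 7.60 to 8.04 in control arrays. The genes that fell were the acid phosphatase gene pho-1, at 3.76 in exposed and 6.43 in control worms (adjusted p = 0.027), and the intermediate filament gene ifb-2, at 7.52 in exposed and 8.67 in control worms (adjusted p = 0.030). Both calls were lost without exposed 1, exposed 3, control 1 or control 2, and that of ifb-2 also without exposed 2 and with the replicate block. In the 4 settings that both lost, the log2 changes were -2.32 to -2.61 for pho-1 and -1.06 to -1.20 for ifb-2. The microvillar actin gene act-5, at 6.59 in exposed and 8.12 in control worms, did not pass (adjusted p = 0.064), but did in 7 of 17 settings, among them the replicate block (0.044). Every exposed array lay below every control in 7 of the 16 markers and above every control in 2. Groups were separate in 28.2% of all tested probe sets. The 2 with exposed arrays above were the esterase gene ges-1 (log2 change 0.66) and the lysozyme gene lys-8 (0.50), and neither passed (adjusted p = 0.122 and 0.238). The part of these markers in the vitellogenin values was not tested.

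On the reproductive side, of 14 oocyte and eggshell markers 0 passed (6 higher and 0 lower unadjusted). The log2 change was positive in 11 and negative in 3, with a median of 0.83, or 0.44 without control 3. Up to 3 members passed in other settings, the 3 without both arrays numbered 3. The list mean lay at 8.12 to 8.83 in exposed and 7.48 to 8.30 in control arrays, so the groups overlapped, and replicate 3 had the lowest mean in each group. Of 10 germline markers 0 passed (6 higher and 0 lower unadjusted) and all 10 changes were positive, with a median of 0.77. Pgl-3, a P granule gene, was at 7.50 in exposed and 6.28 in control worms (adjusted p = 0.081), and passed with the replicate block (0.045), with array weights and without both arrays numbered 3. Their mean lay at 7.80 to 8.41 in exposed and 6.90 to 7.84 in control arrays. Of 10 sperm markers 1, the phosphatase gene gsp-3, rose and 0 fell (2 higher and 0 lower unadjusted). Gsp-3 had a log2 change of 1.14 (adjusted p = 0.0497), and that call was kept in 4 of the 16 settings that tested it. The sperm list mean lay at 3.04 to 3.26 in exposed and 2.72 to 2.87 in control arrays. No sperm probe set had a mean of at least 4 over all arrays, so this list lay low on the scale. The part of germline content in the yolk values was not tested.

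No member of either stage list passed (0 higher and 1 lower unadjusted, mlt-10). Of 4 adult cuticle genes, col-19, a collagen of the adult cuticle, had 7.91, 7.64 and 7.70 in exposed arrays 1, 2 and 3, against 7.31, 6.76 and 8.13 in controls 1, 2 and 3, with overlapping groups and an adjusted p of 0.586. The adult cuticle mean was highest in control 3 (5.93), as were the deviations of vit-2, vit-5 and vit-6. The adult cuticle genes bli-1 and bli-2 lay low on the scale, at 2.22 to 3.13 over all arrays. Among controls, the larval molt mean was also highest in control 3 (7.54), against 6.94 in control 1 and 6.98 in control 2. Whether control 3 differed in stage was not tested. Of 9 larval molt genes, mlt-10 was at 5.09 in exposed and 7.13 in control worms and did not pass (adjusted p = 0.089). Every exposed array of mlt-10 lay below every control. In limma mlt-10 passed in 2 of 17 settings, array weights (adjusted p = 0.048) and without exposed 2 (0.0096). Ptr-4, at 6.16 in exposed and 7.20 in control worms, passed in 1, without exposed 2 (0.039). The molt list mean lay at 6.54 to 7.60 in exposed and 6.94 to 7.54 in control arrays.

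**Figure D5:**
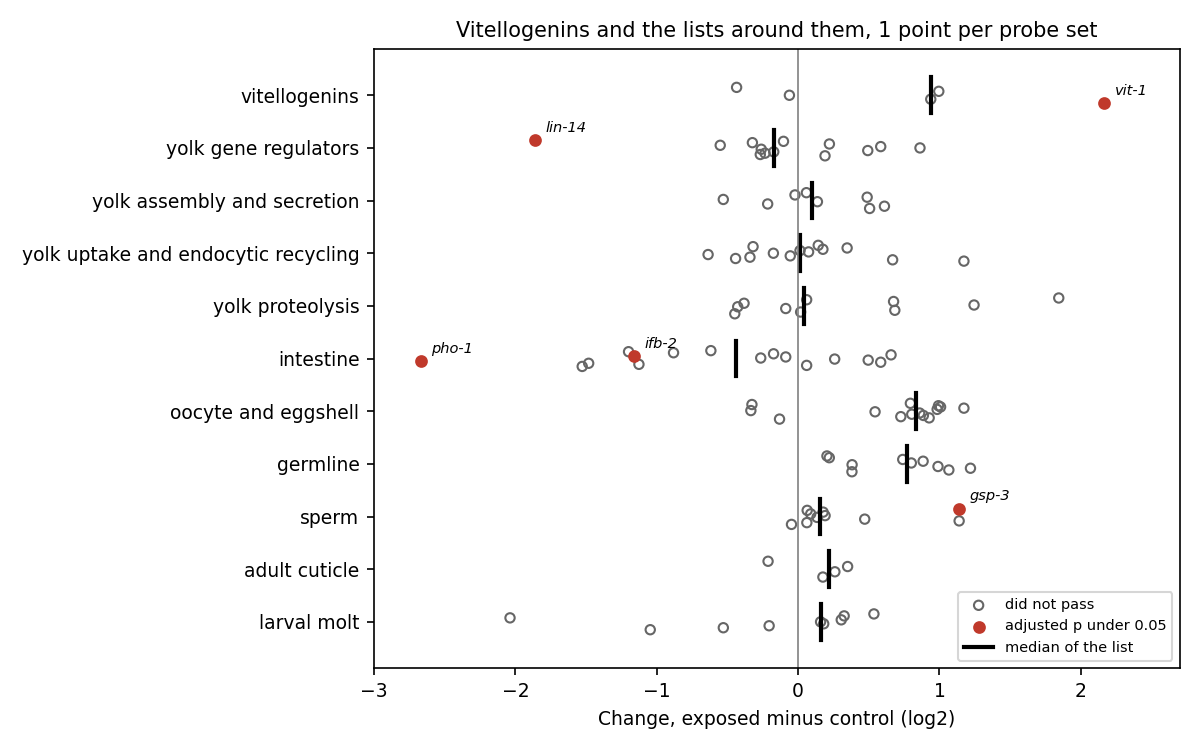
Log2 change, exposed minus control (horizontal axis), with 1 point for each probe set of the vitellogenins and of the 4 yolk and 6 marker lists. Filled red points passed an adjusted p of 0.05 and are named. Black bars give medians, which run from -0.44 for intestine to 0.94 for the vitellogenins, the latter being the change of vit-6.

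For each vitellogenin, the 3 most similar probe sets were taken by Pearson's r over the 6 arrays among those that name 1 gene and vary by at least 1 log2 unit, about 11640 candidates. These r values describe 6 points that share 2 groups and carry no test. For vit-1 they were F32D1.7 (0.998), rif-1.1 (0.994) and mcm-7 (0.992), a subunit of the replicative helicase. Mcm-7 averaged 8.79 in exposed and 7.67 in control worms. The choice by likeness to vit-1, whose groups lie far apart, fixes such a separation, and 150 candidates had r above 0.95 with vit-1. For vit-5 they were F31A3.3 (0.999), Y6E2A.4 (0.992) and the linker histone gene hil-1 (0.989). For vit-6 they were wago-10 (0.991), which encodes an Argonaute protein, W04E12.2 (0.990) and gbh-1 (0.987). For vit-2 they were srg-19 (0.976), F11D5.7 (0.961) and F02E8.9 (0.949), with only 2 candidates above 0.95. For vit-4 they were F48G7.8 (0.995), the C-type lectin gene clec-234 (0.992) and btb-7 (0.987). Of the probe sets named, srg-19, wago-10 and clec-234 lay low on the scale throughout, at 1.99 to 3.48 over all arrays. No vitellogenin stood among the 3 most similar of another. For vit-2 the filter fixed this, since it varied by less than 1 log2 unit and was no candidate.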

How the data were processed

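Per the submitters' processing notes, the authors used RMA and Affymetrix Expression Console, and the deposited table holds log2 values. RMA subtracts a modelled background, puts the arrays on 1 shared distribution and combines the probes of each probe set. Versions and genome build: not given in the sources used here. Scanner data were not analysed here, so the background correction and scan batches were not varied. Precision is limited by having 3 arrays a group.

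The members and lists were chosen with earlier results of these data known. The 26192 of 29317 probe sets that have a gene in the platform table were fitted with limma 3.58.1 in R 4.3.3 (lmFit, eBayes). The test was two-sided for exposed over control, adjusted over all 26192 by Benjamini-Hochberg, and called at 0.05. This fit, whose script was tested on simulated data, gave every adjusted p of a gene for which no other setting is named. Those of another setting come from its own fit, adjusted in the same way. Differences between members were compared with an exact permutation test. Genes named are the 5 members, up to 3 genes with the smallest p of each list, 11 genes whatever their values (rme-2, unc-62, ceh-60, pqm-1, mab-3, elt-2, lin-29, dsc-4, sft-4, cpl-1 and col-19) and the 3 probe sets most similar to each member. Outside this rule, the intestine markers ges-1 and lys-8 and some chromosomal neighbours of the vitellogenin genes were named for their values or place. Lists were described by counts and medians, with no set test. One control sample has the number 3 in its title and 2 in its source label, and was taken as control 3. The 17 alternatives changed the scaling, filter, weights, variance prior, probe sets tested, block and arrays. The robust prior among them was chosen after seeing the data.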

Additional observations from a re-analysis of the deposited data

How the results depend on the processing

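The count of vitellogenins past limma's threshold, 1 as reported, was 2 with array weights and without both arrays numbered 3, and 1 to 2 when 1 array was left out, the 2 coming without control 3 (vit-1 and vit-6 in each case). The count on the 4 yolk lists, 1 as reported, was 2 with equal array medians and with a second quantile normalization, 8 with array weights, 3 with controls 2 and 3 averaged, 6 without both arrays numbered 3, and 0 to 4 when 1 array was left out. It was 0 without exposed 1, exposed 3, control 1 or control 2, and 4 without control 3. The sign of vit-2 turned with equal array medians (log2 change 0.14), array weights (0.077), controls 2 and 3 averaged (0.0074), without both arrays numbered 3 (0.10) and without control 3 (0.051). Leaving out 1 array in turn gave it log2 changes of -0.20 to 0.051. Over all tested probe sets, 959 were called as reported, 3473 with array weights and 2317 without both arrays numbered 3. That count was 49 without exposed 1, 289 without exposed 3, 66 without control 1, 53 without control 2 and 1996 without control 3. The causes were not tested. Linear in place of log2 values turned the sign of none of the 10 differences between members.

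The shared replicate numbers were not treated as pairing. Deviations of same-numbered arrays correlated with r of 0.141, 0.079 and 0.251, and those of differently numbered arrays with r of -0.228 to 0.192. Exposed 1 correlated better with control 2 (0.192), while exposed 2 and exposed 3 correlated best with the control of their own number. These values do not settle whether the numbers mark pairs. With the replicate number as a block, 1 vitellogenin and 1 gene of the yolk lists passed, as without it, and 978 probe sets passed in all. On the marker lists the block gave 4 intestine genes lower, against 2 without it, 1 oocyte and 1 germline gene higher, against 0, and 0 sperm genes, against 1. Vit-1 had an adjusted p of 0.021 and vit-4 one of 0.055 in this fit.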

Other observations

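The protein-coding neighbours of the 6 vitellogenin genes, 2 on each side in the gene order of RefSeq (assembly WBcel235, used for order only), were read for local changes. Vit-3 and vit-4 are next to each other with 0 protein-coding genes between them. Of 20 distinct neighbours that are no vitellogenin, 19 were measured. In limma 0 were called higher and 1 was called lower (4 higher and 3 lower unadjusted), with log2 changes of -1.03 to 1.27 over the 19. Over all tested probe sets, 3.66% were called and 22.5% had an unadjusted p under 0.05, in either direction. Groups were separate for 28.2%. Whether the 19 depart from these shares was not tested. The gene called lower was gyg-1, a glycogenin gene 2 places from vit-4, at 8.89 ± 0.09 in exposed and 9.70 ± 0.06 in control worms (SD, n = 3 each, adjusted p = 0.046). Beside vit-1, spp-14 of the saposin-like family averaged 12.38 ± 0.04 in exposed and 12.41 ± 0.07 in control worms (adjusted p = 0.937), and the neighbour on the other side, set-12, averaged 3.32 ± 0.28 in exposed and 3.04 ± 0.30 in control worms (adjusted p = 0.521). K09F5.6, 2 places from vit-1, had the lowest log2 change of the 19, -1.03, with overlapping groups (adjusted p = 0.116). Beside vit-5, the 3 measured neighbours cht-1, a chitinase gene, unc-78 and dhs-27 had log2 changes of 1.27, 0.55 and 0.98 with separate groups, and none passed (adjusted p = 0.085, 0.157 and 0.097), while vit-5 itself had a change of -0.44. Among the rest of the 19, groups were separate for gyg-1 and C42D8.9, both lower, and for rgs-7, which was higher.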
